A study of Rattus norvegicus with 16 samples.

Results

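The comparison described here is that of old with young extensor digitorum longus (EDL), a predominantly fast-twitch hindlimb muscle, across all microRNAs (miRNAs) detected in it. Its 8 arrays, 4 from young and 4 from old rats, were taken by their tissue and age labels from the 16 arrays of the study, whose other 8 arrays came from soleus, a predominantly slow-twitch hindlimb muscle. All rats were male Fischer 344, a common strain in ageing research, with no genetic change or treatment in either group. Young rats were 6 to 7 months old and old rats 25 to 28 months old, and whole muscle was used. Each array was hybridised with Cy3-labelled RNA prepared from 0.1 ug of total RNA. The arrays hold probes for 677 rat miRNAs. Of these, 144 were well above background on at least 1 EDL array and 112 on 4 or more of the 8, which was the rule for testing, regardless of age.

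A miRNA is a short RNA that guides a silencing complex to messenger RNAs, mainly through pairing of its seed, the bases next to its 5′ end. miRNAs with the same seed form a family with overlapping targets, and miRNAs encoded close together are often cut from a common transcript. In skeletal muscle the myomiRs (miR-1, miR-133 and miR-206 among them) are restricted to muscle and take part in myoblast differentiation, and the miR-29 family is known for repressing collagens and other matrix genes.

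The mature sequences of the miRNAs whose families carry the main differences are shown first, because several of them are relatives that differ at a single base. They are those of RefSeq on build GRCr8, 5′ to 3′, with the seed (bases 2 to 8) in capitals. Of the 112 tested miRNAs, 94 were matched to a RefSeq mature sequence by name.
miR-206: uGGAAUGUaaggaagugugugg
miR-1: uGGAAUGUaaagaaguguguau
miR-29a: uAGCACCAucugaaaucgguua
miR-29b: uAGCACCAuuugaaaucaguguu
miR-29c: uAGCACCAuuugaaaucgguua
miR-196a: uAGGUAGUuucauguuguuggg
miR-196b: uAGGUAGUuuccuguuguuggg
miR-196c: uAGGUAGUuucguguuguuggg
miR-34a: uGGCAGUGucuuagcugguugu
miR-21: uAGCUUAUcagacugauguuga
miR-140*: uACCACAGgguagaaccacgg
miR-16: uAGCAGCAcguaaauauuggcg
miR-103: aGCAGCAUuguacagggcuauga

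miR-206 lies at chr9:30590747-30590768 on the plus strand, miR-34a at chr5:165815971-165815992 on the plus strand, miR-21 at chr10:71902653-71902674 on the minus strand and miR-196a at chr7:135988900-135988921 on the plus strand, each inside its own miRNA gene (Mir206, Mir34a, Mir21 and Mir196a). Positions in the sequences are counted from 1 at the 5′ end. miR-1 and miR-206 have the same seed and differ at 3 positions (A11G, A21G and U22G). miR-29a and miR-29c differ only by C10U. miR-196b and miR-196c differ from miR-196a by A12C and A12G. For members this alike, cross-hybridisation between probes was not tested, so which relative a probe's signal comes from is uncertain.

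The labels do not state that the arrays of a group are separate animals, so p-values cover only the variation among these samples, possibly technical, and the number of arrays limits the precision. All 8 arrays lay on 1 slide, with the young arrays in one column and the old arrays in the other, so age and slide column cannot be told apart. The signal level used for scaling ran from 304 on young EDL 9 to 1221 on old EDL 4. Old arrays were brighter by 0.38 on the log2 scale, within the spread between arrays (exact permutation test, two-sided, p = 0.514, adjusted over 3 array measures 0.629; smallest possible 0.0286). Between 83 and 110 miRNAs were well above background on the young arrays and between 98 and 138 on the old arrays (exact p = 0.143, adjusted 0.429). The hybridisation spike-in was 23723.6 to 26689.5 on the young and 27144.4 to 29927.5 on the old arrays, groups that did not overlap. This difference was not tested, and neither was its part in the age differences below. Arrays of the same age correlated at 0.975 to 0.995 in young and 0.981 to 0.998 in old EDL over the tested miRNAs. Of the 6 myomiRs on the array, 5 were detected (miR-208 was not), with a summed relative signal of 88.4 to 105 in young and 81.9 to 97.4 in old EDL. The epithelial list (0 of 6 detected on any EDL array) and the liver and gut list (0 of 3) were at or near 0, and of the neural list only miR-128 was detected.

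**Figure D1:**
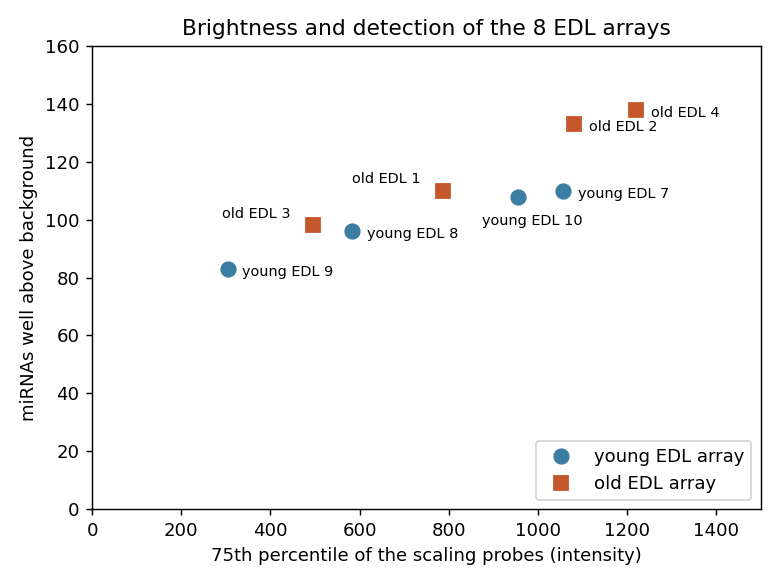
Number of miRNAs well above background (y axis) against the 75th percentile intensity of the 139 scaling probes (x axis) on each of the 8 EDL arrays, circles young and squares old. Young EDL 9, the dimmest array, had 83 miRNAs well above background, and old EDL 4, the brightest, had 138.

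Values below are log2 relative signals, that is, a probe's processed intensity divided by its array's scaling level, and differences are old minus young with limma's standard error (SE). A value of -5.21 is the floor to which weaker signals were raised, and compares with no other probe's level. With an adjusted p below 0.05 as the threshold, 17 of the 112 miRNAs (15.2%) differed with age. Of these, 9 were higher (8.04% of those tested) and 8 lower (7.14%) in old EDL. Only miR-206 and miR-34a among them differed by more than 1 on the log2 scale. The median difference over all 112 was -0.05, and 73 differed by less than 0.25 in either direction. The 4 old values lay all above or all below the 4 young values for 29 miRNAs (25.9%), namely all 17 that passed and 12 that did not. Of the 17, 14 had a second measured probe, and its difference had the same sign in 14 of 14. Both probes were read on the same arrays with the same scaling, so this agreement bears on the probes and not on age.

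**Figure D2:**
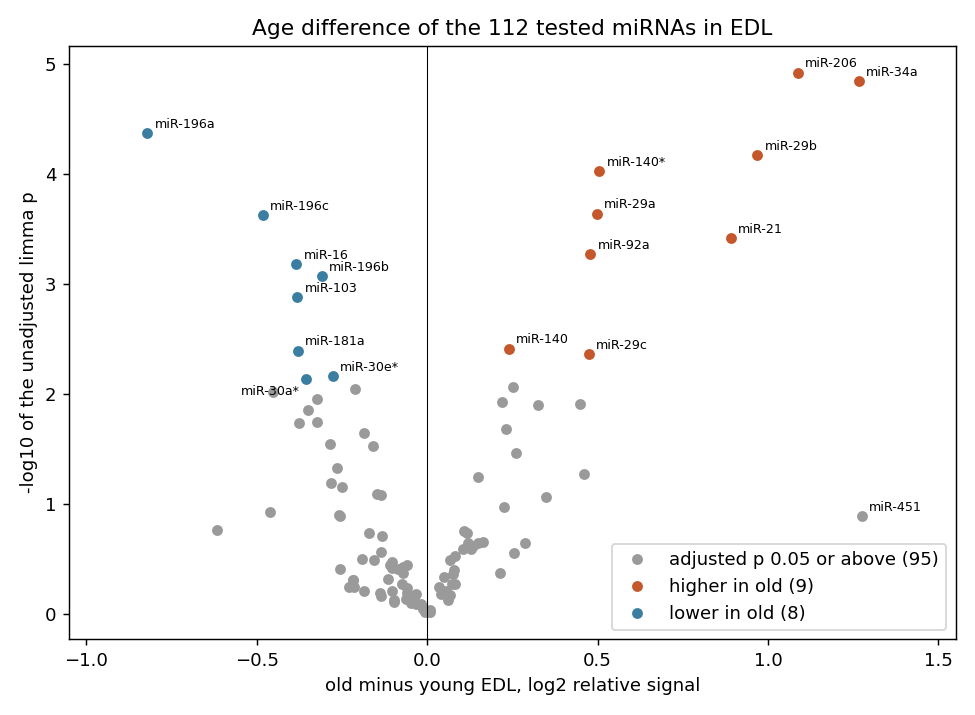
Difference in log2 relative signal between old and young EDL (x axis) against the -log10 of the unadjusted limma p (y axis), 1 point for each of the 112 tested miRNAs. The 9 miRNAs higher in old are led by miR-206 and miR-34a, the 8 lower by miR-196a, and miR-451 has a large difference (1.28) with a weak p.

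The split between higher and lower depended on the scaling. Dividing by the median of the scaling probes in place of their 75th percentile left 9 higher and 2 lower, and scaling to the labelling spike-ins left 8 higher and 2 lower. Scaling and fitting together with the soleus arrays gave 12 higher and 2 lower. No miRNA passed with the percentile taken over all probes, without scaling, or after normexp background correction, with 7, 5 and 2 at an unadjusted limma p under 0.05. In these 3 settings the median difference over the tested miRNAs was -0.25, 0.29 and -0.33, and relative to that the 17 had the signs given here in each of them, except miR-140 after normexp. Leaving out old EDL 2 left 11 calls, 7 higher and 4 lower, which is the lowest count on leaving out any 1 array.

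**Figure D3:**
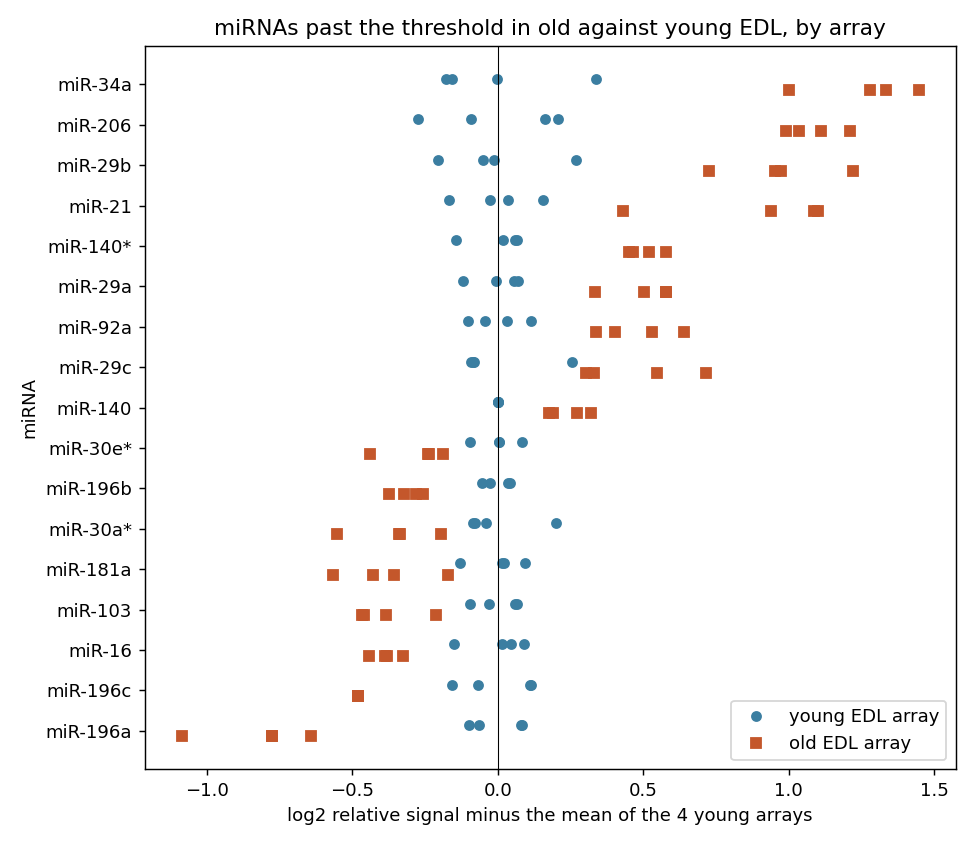
The 17 miRNAs past the threshold, by array: log2 relative signal minus the mean of the 4 young arrays (x axis), circles for young and squares for old arrays. Old and young arrays do not overlap for any of the 17, and miR-181a and miR-29c come closest.

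Among the muscle miRNAs, miR-206 was the only tested myomiR to pass. It is the myomiR tied to slow fibres, satellite cells and the repair of nerve-muscle contacts in mice. Its relative signal was 1.75, 2.05, 2.01 and 1.57 on the young arrays and 2.96, 2.84, 2.88 and 3.06 on the old arrays. Every old array lay well above every young array, a 2.12-fold rise (difference 1.09, SE 0.12, adjusted p = 0.000805). The other tested myomiRs did not pass. miR-1, which shares the miR-206 seed, differed by -0.11 (SE 0.11, adjusted p = 0.614), and miR-133a by -0.17 (SE 0.12, adjusted p = 0.423). miR-133b, encoded within 10 kb of miR-206 on chromosome 9, differed by -0.07 (SE 0.08, adjusted p = 0.653). Its sequence differs from that of miR-133a only at the last base. Whether its probe also reports miR-133a was not tested, so a change of miR-133b alone could be missed. miR-499, hosted in a slow myosin gene, differed by 0.21 (SE 0.26, adjusted p = 0.653) and was well above background on 2 young and 4 old arrays. The median over the 5 tested myomiRs was -0.07. The passenger strands miR-1* and miR-133a*, the other products of the same hairpins, differed by -0.14 and 0.08 and did not pass. miR-1* was at the floor on 3 young and 3 old arrays, so its difference rests on young EDL 9 (-3.88) and old EDL 3 (-4.42) alone.

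In the miR-29 family, 3 of 4 tested members rose (8.04% of all tested miRNAs did) and none fell, with a median of 0.49 against -0.05 over all miRNAs. The fourth, miR-29c*, did not pass. miR-29b gave -1.89, -2.04, -1.85 and -1.57 on the young arrays and -0.88, -0.61, -1.11 and -0.86 on the old arrays. The ages did not overlap, and the rise was 1.96-fold (0.97, SE 0.13, adjusted p = 0.00189). miR-29a gave 1.22, 1.15, 1.04 and 1.21 in young and 1.66, 1.73, 1.49 and 1.73 in old EDL, a 1.41-fold rise (0.50, SE 0.08, adjusted p = 0.00382). miR-29c gave -0.54, -0.54, -0.54 and -0.20 in young and 0.09, 0.26, -0.15 and -0.12 in old EDL, a 1.39-fold rise (0.47, SE 0.12, adjusted p = 0.0327). The groups nearly met for miR-29c, because young EDL 10 stood above the other young arrays. miR-29c*, the opposite strand of the miR-29c hairpin, differed by 0.08 (SE 0.09, adjusted p = 0.635). In RefSeq, miR-29a and a copy of miR-29b lie together on chromosome 4, and miR-29c and the second miR-29b copy on chromosome 13. The array cannot separate the copies of miR-29b, whose mature sequence is the same.

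Of the 5 mesenchymal miRNAs, which are typical of fibroblasts and cartilage, the 2 strands of the miR-140 hairpin rose (8.04% of all tested miRNAs did). The sign of both turned after normexp, and the other 3 did not pass. miR-140* gave -3.75, -3.96, -3.80 and -3.76 on the young arrays and -3.30, -3.35, -3.36 and -3.24 on the old arrays. The old arrays were tightly grouped above the young ones, a 1.42-fold rise (0.50, SE 0.07, adjusted p = 0.00212). miR-140 was at the floor on all 4 young arrays and at -4.88, -4.93, -5.01 and -5.03 on the old arrays (0.24, SE 0.06, adjusted p = 0.0324), and its probe was well above background on 1 young and 3 old arrays. This fitted difference depends on the floor, and each strand rests on 1 measured probe. miR-199a-3p, miR-199a-5p and miR-214, which come from clustered loci, differed by -0.38, -0.26 and -0.28 (adjusted p = 0.0755, 0.324 and 0.202). The median of the 5 was -0.26, opposite in sign to the 2 that passed.

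Among miRNAs known from stress responses, miR-34a and miR-21 rose, the sign of miR-34a turning only after normexp among the scalings and backgrounds tried. miR-34a, a direct target of p53 that is often higher in aged tissue, gave -4.19, -4.70, -4.68 and -4.53 on the young arrays and -3.19, -3.24, -3.52 and -3.08 on the old arrays. All old arrays lay above all young ones, a 2.41-fold rise (1.27, SE 0.14, adjusted p = 0.000805). The probe was dim, and on 1 young array it was not well above background. No other member of the miR-34 family was detected.

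miR-21, which is induced in inflammation and fibrosis, gave -1.49, -1.43, -1.63 and -1.31 in young and -0.52, -0.38, -1.03 and -0.36 in old EDL. The groups did not overlap, with old EDL 3 lowest of the old arrays, and the rise was 1.85-fold (0.89, SE 0.15, adjusted p = 0.00537). miR-146a, a feedback inhibitor of NF-kB signalling, differed by 0.46 (SE 0.20, adjusted p = 0.175), with overlapping groups. Beside these values, the summed relative signal of the 4 leukocyte miRNAs on the array was 0.442 to 0.512 in young and 0.518 to 0.571 in old EDL, groups that did not overlap. Of single tested miRNAs, 25.9% had groups that did not overlap. From the leukocyte list, miR-223 (0.26, adjusted p = 0.531) and miR-150 (0.12, adjusted p = 0.423) were tested and did not pass, each with overlapping groups. miR-142-5p was detected on no array. The part of blood or immune cells in the rise of miR-21 was not tested. In whole muscle, fewer cells of a type and less RNA per cell cannot be told apart, and the same holds for more.

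All 5 tested miRNAs of the miR-17-92 cluster and its paralogues, which are known for promoting proliferation, had positive differences. Of all 112 tested miRNAs, 46 did. The 5 differences were all negative after normexp. Of the 5, 1 passed as higher, against 8.04% of all tested miRNAs. miR-92a gave -3.41, -3.33, -3.54 and -3.49 on the young arrays and -3.04, -3.11, -2.91 and -2.80 on the old arrays. The ages did not overlap, a 1.39-fold rise (0.48, SE 0.09, adjusted p = 0.00671). In RefSeq, miR-92a has a copy on chromosome 15 and another on chromosome X with the same mature sequence, which the array cannot separate. miR-20a, from the cluster on chromosome 15, had a difference of similar size that did not pass (0.45, SE 0.14, adjusted p = 0.0594). The paralogous cluster on chromosome 12 gave 0.13 for miR-25, 0.12 for miR-93 and 0.16 for miR-106b, none past the threshold. The median of the 5 was 0.16.

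The 3 members of the miR-196 family fell (7.14% of all tested miRNAs did), with the sign of miR-196b turned without scaling. These are encoded in the Hox clusters, target Hox messages and differ from each other at position 12. miR-196a gave -2.88, -2.88, -3.06 and -3.03 on the young arrays and -3.74, -3.74, -3.60 and -4.05 on the old arrays. Old arrays were all below young ones, a 1.77-fold fall (-0.82, SE 0.10, adjusted p = 0.00158), the largest fall among the 112. miR-196b gave -3.60, -3.51, -3.51 and -3.58 in young and -3.83, -3.81, -3.87 and -3.93 in old EDL, a 1.24-fold fall (-0.31, SE 0.06, adjusted p = 0.00862). miR-196c gave -4.88, -4.61, -4.61 and -4.79 in young EDL and was at the floor on all 4 old arrays (-0.48, SE 0.08, adjusted p = 0.00382). Its probe was well above background on 3 young and 2 old arrays, its fitted difference depends on the floor, and it rests on 1 measured probe. The other Hox-cluster miRNAs, miR-10a-5p and miR-10b, differed by 0.22 and 0.08 and did not pass. Over the 5 Hox-cluster miRNAs the median was -0.31.

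Smaller falls were found in 4 further families. Those of miR-16, miR-103 and miR-181a were near 0 without scaling (-0.0043, -0.0016 and -0.00068). None of these passed without scaling, with the median of the scaling probes or with the labelling spike-ins. Over the settings tried, miR-16 and miR-103 each passed in 23 of 29 and miR-181a in 15 of 29. miR-16, a repressor of cell-cycle genes, gave 0.19, 0.27, 0.03 and 0.22 on the young arrays and -0.20, -0.21, -0.15 and -0.26 on the old arrays. Young arrays were all above old ones, a 1.30-fold fall (-0.38, SE 0.07, adjusted p = 0.00744). Its relatives with the same seed gave -0.32 for miR-497 (adjusted p = 0.0755), -0.26 for miR-195 (adjusted p = 0.161), 0.07 for miR-322 and 0.06 for miR-15b. miR-15b, encoded beside miR-16 on chromosome 2, thus had a value near 0, and the median of the 5 was -0.26.

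miR-103, known for its part in insulin sensitivity, gave -2.07, -1.97, -1.98 and -2.13 in young and -2.42, -2.49, -2.25 and -2.50 in old EDL. The ages did not overlap, a 1.30-fold fall (-0.38, SE 0.08, adjusted p = 0.0124). miR-107, which differs from miR-103 by G22C, had a smaller difference that did not pass (-0.13, SE 0.07, adjusted p = 0.238). miR-181a, known from lymphocytes and also from muscle differentiation, gave -2.25, -2.26, -2.18 and -2.40 in young and -2.63, -2.84, -2.44 and -2.70 in old EDL (-0.38, SE 0.10, adjusted p = 0.0324). Its cluster partner on chromosome 13, miR-181b, had a difference of like size that did not pass (-0.45, SE 0.13, adjusted p = 0.054), with overlapping groups. miR-181a has another copy on chromosome 3 with the same mature sequence, which the array cannot separate.

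None of the 7 tested strands of the miR-30 family had a positive difference (median -0.29), while 66 of all 112 tested miRNAs had a negative one. Of the 7, 2 passed as lower, both passenger strands, against 7.14% of all tested miRNAs. Without scaling the sign of all 7 turned. miR-30a* gave -1.78, -1.54, -1.82 and -1.81 on the young arrays and -2.08, -2.08, -1.93 and -2.29 on the old arrays (-0.36, SE 0.10, adjusted p = 0.0478). miR-30e* gave -2.34, -2.26, -2.44 and -2.34 in young and -2.58, -2.58, -2.53 and -2.78 in old EDL (-0.28, SE 0.08, adjusted p = 0.0478). For both, old arrays lay below young ones by a narrow margin. The opposite strands miR-30a and miR-30e, which carry the family seed, had differences of -0.32 (adjusted p = 0.0594) and -0.29 (adjusted p = 0.108) that did not pass, as did miR-30c at -0.35 (adjusted p = 0.0624). miR-30d (-0.05) and miR-30b-5p (0.00) were near 0.

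**Figure D4:**
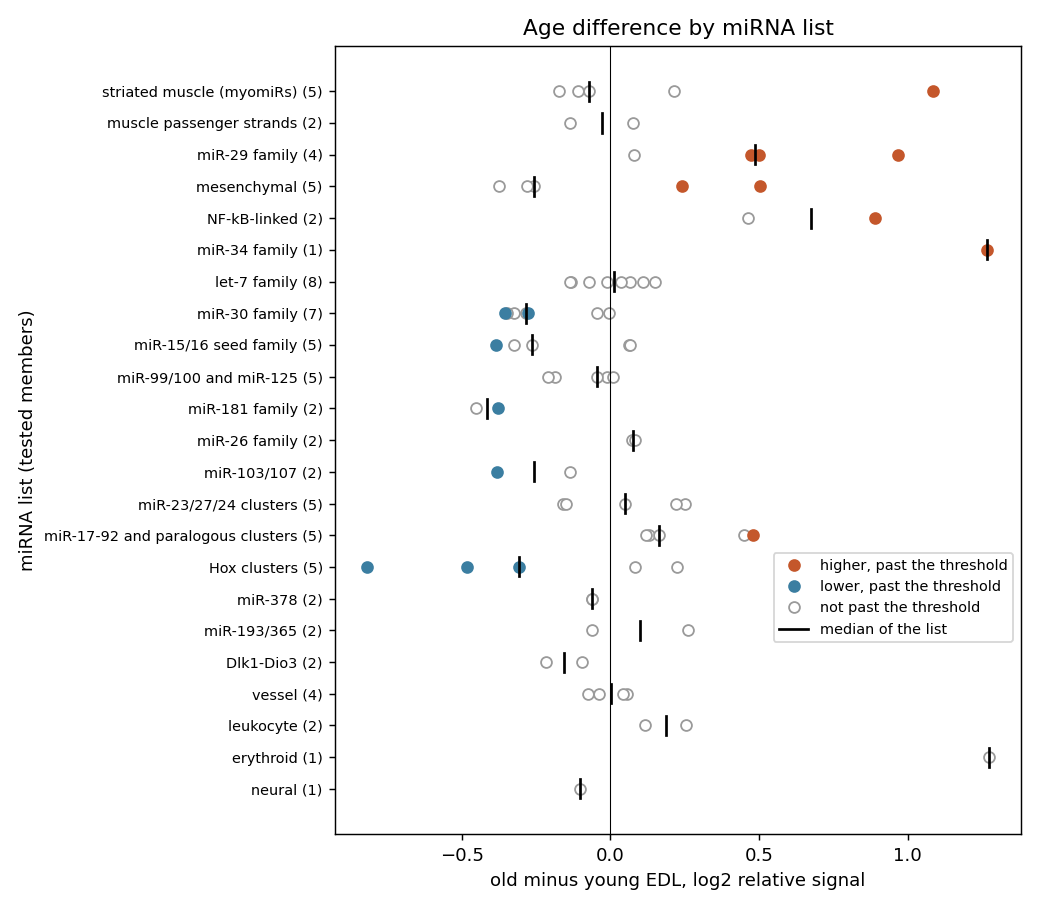
Old minus young EDL difference in log2 relative signal (x axis) of every tested miRNA in each list with a tested member (rows, with the number tested), filled where past the threshold and open where not, with a bar at the list's median. The miR-29 points lie above 0 and the miR-30 and miR-181 points below it, while let-7 and vessel points lie around 0. Without scaling all the miR-30 points move above 0, and after normexp miR-29c* moves below it.

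Several abundant families showed no member past the threshold. The 8 tested let-7 miRNAs, which are markers of differentiated cells, ranged from -0.13 to 0.15 with a median of 0.01. The miR-99/100 and miR-125 group of 5 had a median of -0.05, with the lowest p for miR-125b-5p (-0.21, SE 0.06, adjusted p = 0.0535). miR-26a and miR-26b differed by 0.07 and 0.08, and miR-378 and miR-378*, hosted in a gene of mitochondrial metabolism, both by -0.06. Of 39 miRNAs on the array from the imprinted Dlk1-Dio3 locus, only miR-494 and miR-409-3p were tested, with -0.22 and -0.10. miR-409-3p was at the floor on 2 young and 3 old arrays.

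The paralogous miR-23/27/24 clusters gave values of opposite sign, except without scaling, where all 4 below were positive, and after normexp, where miR-23b was. In the chromosome 19 cluster, miR-23a differed by 0.25 (SE 0.07, adjusted p = 0.0534) and miR-27a by 0.22 (SE 0.07, adjusted p = 0.0594). In the chromosome 17 cluster, miR-23b differed by -0.16 (SE 0.06, adjusted p = 0.108) and miR-27b by -0.15 (SE 0.07, adjusted p = 0.238). miR-23a and miR-23b differ by U19A, and miR-27a and miR-27b by C19U. None of the 4 passed, and the difference between the clusters was not tested. miR-24, a product of both clusters, differed by 0.05. miR-204 and miR-193 had positive differences that did not pass (0.33, adjusted p = 0.0594, and 0.26, adjusted p = 0.121).

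Markers of other cells in the muscle varied in different ways. The 4 vessel miRNAs (miR-126 and miR-126* of endothelium, miR-143 and miR-145 of smooth muscle) had a median of 0.00, and their summed relative signal was 2.10 to 2.39 in young and 1.98 to 2.42 in old EDL. miR-451, the main miRNA of red cells, gave -4.42, -5.01, -4.35 and -4.20 on the young arrays and -4.56, -4.80, -1.23 and -2.29 on the old arrays. It was high on old EDL 3 and old EDL 4 alone, and the age difference did not pass (1.28, SE 0.76, adjusted p = 0.324). miR-144, its cluster partner, was detected on no EDL array. miR-16 and miR-92a are abundant in red cells too. On old EDL 3 and old EDL 4 miR-16 was -0.15 and -0.26, against -0.20 and -0.21 on the other old arrays. miR-92a was -2.91 and -2.80 there, against -3.04 and -3.11, so that all 4 old arrays stayed above the highest young value of -3.33. The part of red cells in the miR-92a rise was not tested.

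The spread within an age was like in both groups, with a median SD of 0.171 in young and 0.155 in old EDL, and the SD was larger in old for 43 of 110 miRNAs compared. In old EDL miR-451 varied most (SD 1.74), followed by miR-652* (0.574), miR-3085 (0.519), miR-2985 (0.504) and miR-3588 (0.490). In young EDL it was miR-3588 (SD 0.827), at -2.48, -1.65, -1.74 and -3.44 on the young and -2.54, -3.19, -2.53 and -3.51 on the old arrays. These values overlapped, and the age difference of miR-3588 did not pass (-0.62, SE 0.41, adjusted p = 0.421). Next in young EDL were miR-466b (SD 0.801), miR-2985 (0.751), miR-1224 (0.678) and miR-3085 (0.672). Each of these was highest on young EDL 9 and, among old arrays, on old EDL 3, the dimmest array of each age. For miR-1224 the young values were -0.84, -0.12, 0.66 and -0.68. The part of array brightness in this spread was not tested.

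Of 32 miRNAs detected on too few arrays to be tested, 2 were well above background on 3 arrays of one age and none of the other. miR-675*, cut from the imprinted H19 transcript, was at the floor on all 4 young arrays and at -4.21, -4.25, -4.67 and -4.23 on the old arrays, where 3 were well above background. For a fold, the higher of the probe's own signal and the array's lowest signal well above background was taken on each array. On these values the mean of miR-675* was 1.42-fold higher in old EDL. On old EDL 3 the lowest signal (-4.62) replaced the probe's own (-4.67), so 1.42 is not a strict lower bound. miR-191* was also well above background on 3 old arrays and no young one, but its fold on such values was under 1 and is not given.

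The soleus arrays carry limits that the EDL arrays do not. Young soleus lay on one slide and old soleus on another, so in soleus age and slide cannot be told apart, and neither can muscle and slide. The labelling spike-in was marked out of range on 6 of the 8 soleus arrays (2 young, all 4 old) and on no EDL array. The hybridisation spike-in was 5287 on young soleus 7, against 23724 or more on the EDL arrays. The part of slide and labelling in the soleus values was not tested.

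miR-206 rose with age in EDL, while its difference in soleus was negative and did not pass. On a scale set over all 16 arrays it was 0.94, 1.23, 1.05 and 0.96 in young and 2.27, 2.17, 2.07 and 2.48 in old EDL. In soleus it was 4.51, 4.46, 4.71 and 4.58 in young and 4.21, 4.41, 4.25 and 4.03 in old rats. Old EDL thus stayed below every soleus array, and the age difference in soleus did not pass (-0.34, SE 0.10, adjusted p = 0.0636). The age effect in soleus minus that in EDL was -1.54 (SE 0.14, adjusted p = 9.79e-06), and miR-206 was the 1 miRNA of 114 (0.877%) with such a difference past the threshold. This difference includes any difference between the soleus slides. Where the percentile came from all probes, or no scaling was done, miR-206 did not pass (-1.61, adjusted p = 0.995, and -2.08, adjusted p = 0.173) and the count was 0. Leaving out young soleus 7 gave a count of 9, and leaving out young EDL 10 or old EDL 3 a count of 2.

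Of the other EDL calls, miR-140 and miR-196c had a difference of 0 in EDL at the higher floor of this scale. The remaining 14 had the same sign in soleus, but the share of all 114 miRNAs with the same sign was not taken. Of the 14, 2 also passed in soleus, where 4 of 114 (3.51%) did. These were miR-196a at -0.80 (SE 0.12, adjusted p = 0.00155) and miR-29b at 0.76 (SE 0.19, adjusted p = 0.0384). In soleus miR-21 differed by 0.86 (SE 0.25, adjusted p = 0.0636), miR-34a by 0.36 (SE 0.13, adjusted p = 0.102) and miR-16 by -0.37 (SE 0.11, adjusted p = 0.0636). For none of these 3 did the difference between muscles pass. After miR-206, the lowest p for such a difference was that of miR-214 (0.90, SE 0.24, adjusted p = 0.159). Next came miR-34a (-0.57), miR-150 (-0.42) and miR-199a-3p (0.66), each at an adjusted p of 0.244. On this scale miR-34a was at the floor (-4.88) on every young EDL array. Its age difference in EDL and its difference between muscles therefore depend on the floor.

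**Figure D5:**
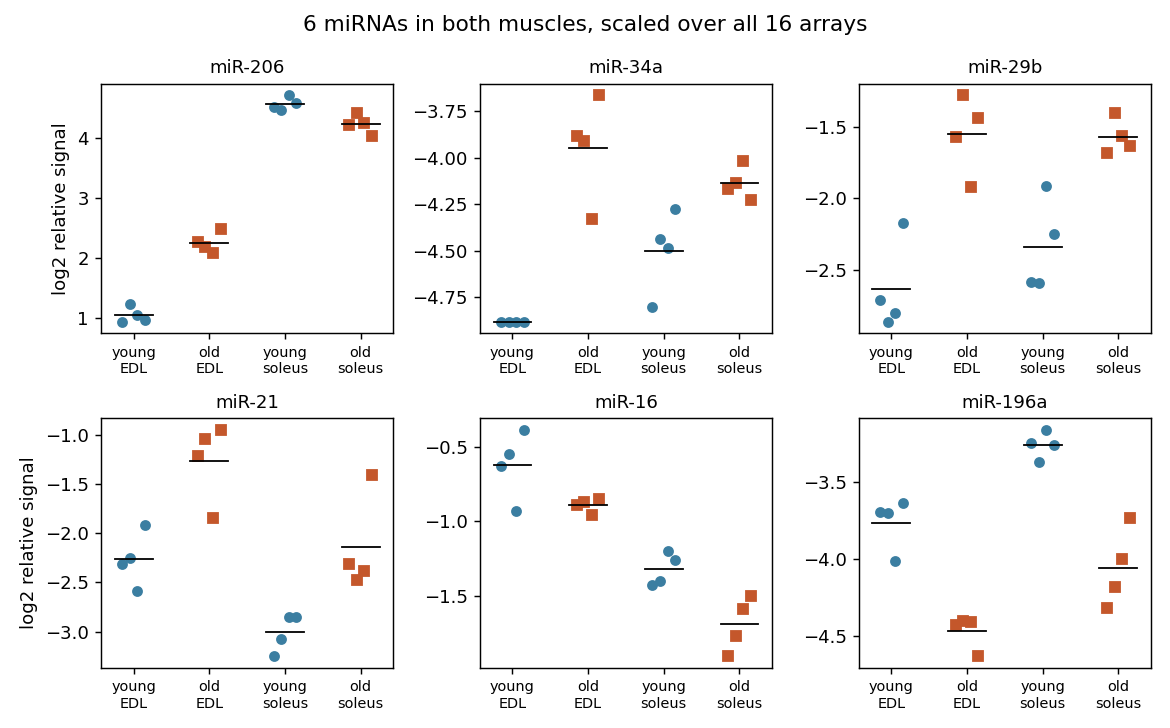
Log2 relative signal, scaled over all 16 arrays (y axis, own range in each panel), of 6 miRNAs in young and old EDL and soleus, with 1 point per array and a line at the group mean. Old exceeds young miR-206 in EDL but not in soleus, and for miR-29b and miR-196a the age difference has the same sign in both muscles. miR-34a is at the floor on every young EDL array.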

How the data were processed

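The deposited values are spot intensities, with 1 file per array. Per the file headers, the software was Agilent Feature Extraction (version 10.7.3.1; 10.7 in the submitters' processing notes; protocol miRNA_107_Sep09), with a grid annotated on rn4. The intensity used, gProcessedSignal, is background-treated and not scaled between arrays. The values the authors gave for the series as a whole were equal (100% within a relative tolerance of 1e-06). Control spots and outlier spots (2.87% on the EDL arrays) were left out, and 0 spots were saturated. The 5 to 20 spots of each of 1644 probes were averaged. A probe was well above background where more than 0.5 of its spots carried that mark. Signals were scaled to each array's 75th percentile over the 139 probes well above background on all 8 EDL arrays. Weaker values were set to 0.0271 (log2 -5.21), the lowest signal well above background on an array, as a median of the 8, and all were put on the log2 scale. The brightest probe stood for a miRNA.

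Old and young EDL were compared with limma 3.58.1 (R 4.3.3; two-sided, Benjamini-Hochberg over all 112 tested miRNAs, no covariate). Every adjusted p for a miRNA is limma's. The muscles were compared by an interaction term in a fit of all 16 arrays (95 scaling probes, floor at log2 -4.88, 114 miRNAs tested). The fit of old against young EDL was tested on simulated log2 values, which did not cover scaling, floor or filter. Files were read with jsonlite 2.0.0 and the data.table package (1.17.8). Plots were drawn with matplotlib 3.10.9 and numpy 2.4.6 in Python 3.11.15.

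The miRNAs and 27 lists were chosen with earlier results of these data known. Named are all that passed, the 10 with the next lowest p, muscle, matrix and stress list members, up to 5 of each other list, partner strands, miRNAs of 1 age only, the 5 most variable in each age, and the 5 lowest p for the muscle difference. miR-210, miR-221 and miR-222 were on the array and not tested. Alternatives covered scaling, background, signal column, probe and spot summary, filter, floor, covariates, weights and leaving out each array. Slide rows carry the replicate numbers of the titles, and these do not pair the samples.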

Additional observations from a re-analysis of the deposited data

Results flagged for a closer look

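Of 155 groups of 4 arrays checked for a single array far from the other 3, 4 had one, and chance alone gives about 1 in 20. The test is Dixon's, on the gap to the nearest other array as a share of the group's range. miR-29c was -0.20 on young EDL 10 against -0.54 on each of the other young arrays, and miR-30e was -1.11 on the same array against -1.36 to -1.33. miR-30a* was -1.54 on young EDL 8 against -1.82 to -1.78. miR-133b was 5.59 on old EDL 4 against 5.81 to 5.82 on the other old arrays. For miR-206 the effects of age in the muscles differed by -1.54 (soleus minus EDL, limma interaction term, adjusted p = 9.79e-06), being 1.20 in EDL and -0.34 in soleus, where the young and old arrays lay on different slides.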

How the results depend on the processing

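Against 17 calls, the count was 0 with the 75th percentile over all probes, without scaling or after normexp, 11 with the median of the scaling probes, 10 with the labelling spike-ins and 27 with array weights. Leaving out 1 array gave 11 to 19 calls. The remaining settings gave 12 to 24, among them 14 with all 16 arrays in the fit (10 of them among the 17). Added after the data were seen were leaving out the dimmest array of each age (19 calls, 16 of them among the 17) and normexp with quantile normalization (21, of which 14). With a replicate block on the title numbers there were 20 calls (15 shared), while arrays with the same number correlated at -0.04 to 0.63.

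Among the calls, signs turned without scaling for miR-30a* (0.023), miR-30e* (0.10) and miR-196b (0.070). After normexp they turned for miR-140 (-0.39), miR-140* (-0.16), miR-34a (-0.061) and miR-92a (-0.15). Relative to the median over the tested miRNAs, of these only miR-140 after normexp (-0.06) still had the opposite sign. miR-206, miR-29b, miR-21, miR-196a, miR-29a, miR-140* and miR-92a passed in 26 of 29 settings, miR-30a* and miR-140 in 9 of 29 and 9 of 28.

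For the difference between muscles (1 call), there were 0 calls where the percentile came from all probes or no scaling was done (1 and 3 at an unadjusted limma p under 0.05), 3 with the floor at the highest of the arrays and 2 with a brightness covariate. It was 1 to 9 on leaving out 1 array and 1 with a replicate block. The brightness difference was 0.01 to 0.64 on leaving out 1 array. The cause of these changes was not tested. Dim probes such as miR-34a, miR-140 and miR-196c lie near the floor, where signal over background limits the precision.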
